A study of Homo sapiens with 8 samples.

Results

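Mitotic genes were studied here in EndoC-βH5, an established human beta-cell line, without and with exposure to inflammatory cytokines. The set was a list of 40 symbols of genes that act in mitosis, and a gene was a member when the deposited table of CPM values (counts scaled to a fixed library total, that is a gene's reads relative to all reads of its library) held a row with its symbol. Of the 40 genes, 38 were among the 16525 genes of the table, while NUSAP1 and PRC1 were not analysed here. The line comes from fetal pancreatic rudiments that were immortalised with SV40 large T-antigen and hTERT, and both transgenes were later removed, after which the cells are supplied as frozen stocks of mature beta cells. All cells thus share 1 origin. The comparison was between 4 libraries of untreated cells (control) and 4 libraries of cells kept for 48 h with a mixture (cytokine) of 50 U/mL IL-1β with IFNγ and TNFα, each at 1000 U/mL, all from strand-specific sequencing of mRNA. Each control library shares the first part of its column name with 1 cytokine library, and these pairs are called A, B, C and D. The names of A and B share their ending, as do those of C and D. The labels do not say whether the libraries of a group came from separate thawings or cultures, so that the p-values measure the spread between these libraries, part of which may be technical.

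Cells enter mitosis when CDK1, bound to a mitotic cyclin, is switched on by CDC25 phosphatases, and the Aurora and Polo-like kinases then drive the assembly of a spindle whose attachment to the kinetochores is watched by a checkpoint until CDC20 and the anaphase-promoting complex release the sister chromatids. The transcripts of these genes are made mainly in G2 and mitosis and are scarce in resting cells, and many of their promoters carry a pair of short sequence elements, the cell cycle genes homology region (CHR) and the CCAAT box. Adult human beta cells divide rarely, and EndoC-βH5 cells are described as non-proliferative. The comparison therefore asked at what level mitotic transcripts are present in this line and how that level differs after cytokine exposure. In RNA of whole cultures, fewer dividing cells and less RNA of a gene per cell cannot be told apart.

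The promoter elements are shown first, since they are shared by members that fell and by the 2 members that were not lower. The RefSeq table of GRCh38.p14, which gives 250 bases before and 50 bases after the transcription start, held 33 of the 38 members. AURKA, BIRC5, TPX2, TTK and UBE2C had no entry. The CHR was searched as TTTGAA or else as TTCGAA, and the CCAAT box by its own letters, on both strands (so also as TTCAAA for the former and ATTGG for the latter), and each match is a match of letters only. Below are the 150 bases before the RefSeq start of 5 members that hold both elements, with the CHR and CCAAT letters in capitals. MKI67 (chr10:128126424-128126573, minus strand), KIF11 (chr10:92592980-92593129, plus strand) and CDC20 (chr1:43358831-43358980, plus strand) are examples of members that were lower in cytokine-treated cells, and CKS1B (chr1:154974531-154974680, plus strand) and CKS2 (chr9:89311045-89311194, plus strand) are those that were not. In GENCODE 29 the last 28 bases of the CKS1B window and 26 bases of the CDC20 window belong to the first exon, and the other windows hold no exon of their gene. The CHR of MKI67 nearest the start runs into a CCAAT box, and these letters are counted for both elements.
MKI67: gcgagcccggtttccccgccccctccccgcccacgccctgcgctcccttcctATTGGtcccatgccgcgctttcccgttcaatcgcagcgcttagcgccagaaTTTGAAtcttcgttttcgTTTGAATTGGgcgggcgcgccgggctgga
KIF11: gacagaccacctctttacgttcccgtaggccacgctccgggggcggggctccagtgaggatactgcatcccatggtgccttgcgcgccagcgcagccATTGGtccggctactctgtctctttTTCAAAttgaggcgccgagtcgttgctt
CDC20: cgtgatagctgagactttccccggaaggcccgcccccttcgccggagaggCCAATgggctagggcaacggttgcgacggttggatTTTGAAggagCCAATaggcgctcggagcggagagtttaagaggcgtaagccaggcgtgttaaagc
CKS1B: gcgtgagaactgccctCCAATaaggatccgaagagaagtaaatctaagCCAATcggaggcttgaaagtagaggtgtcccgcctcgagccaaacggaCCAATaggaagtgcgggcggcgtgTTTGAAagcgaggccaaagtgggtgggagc
CKS2: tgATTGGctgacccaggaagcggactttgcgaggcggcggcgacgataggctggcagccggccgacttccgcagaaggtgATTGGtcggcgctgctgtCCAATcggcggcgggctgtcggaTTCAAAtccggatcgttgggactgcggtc

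A CHR was present in 25 of the 33 promoters (75.8%, exact 95% binomial interval 57.7% to 88.9%) and in 16.6% of all 27305 promoters of the table. A CCAAT box was present in 25 of 33 (75.8%) and in 35.7% of all promoters, and 17 of 33 (51.5%) against 11.3% of all promoters had at least 2. Both elements were found together in 21 of 33 promoters (63.6%, interval 45.1% to 79.6%), compared with 6.58% of all promoters. These 21 comprised 19 members with a negative log2 fold change and also CKS1B and CKS2, as the printed sequences show. CDC25C, CENPE, KIF2C and MELK had neither element in this window. E2F-type letters (the letters TTCCCGC, the letters TTGGCGC or the letters TTCGCGC on either strand, the second of which can overlap a CCAAT box when reversed) were present in 6 of 33 (18.2%) and in 11.2% of all promoters. In a shorter window of 100 bases before to 50 bases after the start, both elements were present in 48.5% of the members' promoters and in 1.86% of all promoters, and E2F-type letters in 6.06% and 6.12%. A CHR began within the 50 bases before the start in 14 of 33 (42.4%, against 2.74% of all promoters) and a CCAAT box began 51 to 100 bases before it in 21 of 33 (63.6%, against 13.5%). These last windows were chosen after the positions had been seen.

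**Figure D1:**
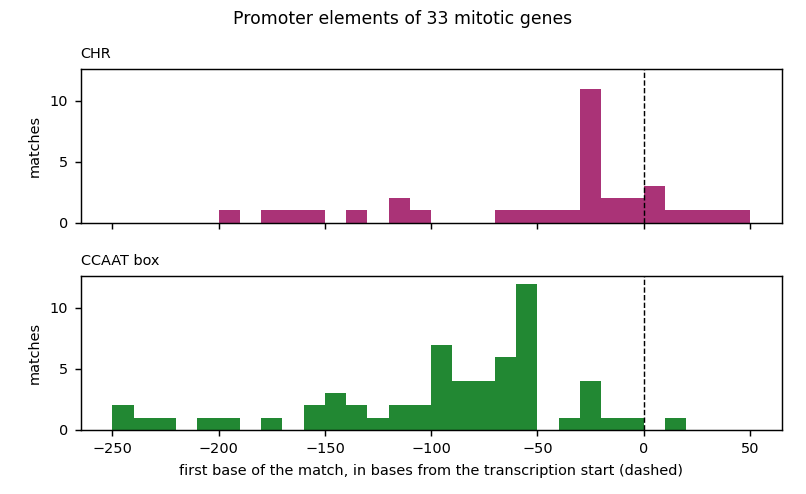
Positions of the CHR (top) and CCAAT box (bottom) in the promoters of the 33 mitotic genes with a RefSeq entry; the x axis gives the first base of each match in bases from the transcription start, in bins of 10 bases, and the y axis the number of matches. CHR matches are most frequent in the 50 bases before the start and CCAAT boxes in the 50 bases before those.

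Mitotic transcripts were measured in all 8 libraries, at low to moderate levels. The libraries held between 36577438 and 40117636 reads on the listed genes, 1 read corresponded to 0.0196 to 0.0214 CPM, and 36 of the 38 members had at least 20 reads in every library. The exceptions were CDC25C and CENPA, with a minimum of 18 and 16 reads. The share of each library's total that fell outside the listed genes lay between 20.1% and 21.01% in pairs A, B and C and was 26.6% and 26.5% in control and cytokine library D. All 13 beta-cell markers examined were present, with a summed level of 25726 to 38382 CPM in control and 30194 to 53869 CPM in cytokine libraries. Most of this sum was CHGA, at 16689 to 24930 CPM in control and 20160 to 36198 CPM in cytokine libraries. By limma 8 of the 13 were called lower and 0 higher, where 17.5% of all genes were called lower and 9.52% higher. SLC30A8 (log2 fold change -1.20) and ABCC8 (-0.84) were among the lower ones, while CHGA (0.39) and IAPP (0.93) were not called. With the pair as a block in the same test 8 were lower and 1 higher, IAPP (adjusted p = 3.5e-09). Over all genes these shares were 23.8% and 11.6%. Of markers of other cell types, 1 of 12 acinar, 3 of 7 duct, 5 of 10 mesenchymal and 1 of 9 endothelial and immune genes were in the table, and the remainder, PECAM1, PTPRC, COL3A1 and KRT7 among them, were not analysed here. The summed mesenchymal markers were at 28.6 to 39.2 CPM in control and 56.9 to 66.1 CPM in cytokine libraries, and FN1 (log2 fold change 3.75) and VIM (2.21) were called higher while THY1 (-0.71) was called lower. The acinar marker CPA1 was called lower (-1.06), and KRT19 (0.01), MUC1 (0.39) and CD14 (-0.45) of the duct and immune lists were not called. The part of these markers in the results below was not tested.

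To compare members with each other, reads were divided by exon length and scaled to the same sum in each library (TPM). UBE2C, the ubiquitin-conjugating enzyme that works with the anaphase-promoting complex, was the highest member in control cells at 65.9 ± 28.1 TPM (SD, n = 4), followed by CKS2 at 36.3 ± 4.97 TPM, TPX2 at 32.4 ± 13.2 TPM and TOP2A at 29.8 ± 18.7 TPM. At the lower end were CDC25C at 2.53 ± 0.741 TPM, KIF23 at 2.45 ± 1.74 TPM and CENPE at 1.40 ± 1.06 TPM. The control ranges of every 2 neighbours in this order overlapped (0 of 37 neighbours were apart). The median member was at 7.90 TPM, compared with 11.6 TPM for all 16167 genes with a length, and members lay between the percentiles 10.6 and 88.5 of all genes. In cytokine-treated cells CKS2 was the highest member at 43.8 TPM, UBE2C was at 27.1 TPM and CKS1B, which ranked 9 in control cells, ranked 3 at 19.0 TPM.

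Most members fell after cytokine exposure. With limma on log2(CPM + 0.1), 32 of 38 members were called lower and 0 higher, where a call needs an adjusted p below 0.05 (Benjamini-Hochberg over the 16525 genes) and a log2 change above 0.5 in size. Over all genes 17.5% were called lower and 9.52% higher. At an unadjusted p below 0.05, 36 members were lower (28.3% of all genes) and 0 higher, and DESeq2 called 33 lower (13% of all genes) and 0 higher. The median log2 fold change of the members was -1.22, against -0.17 over all genes, and their changes ranged from -1.75 for KIF20A to 0.15 for CKS2. A log2 change below -1 was seen in 33 members (7.35% of all genes). In 24 of 38 the 4 cytokine libraries all lay below the 4 control libraries, as they did in 21.9% of all genes. The other 14 overlapped, and 12 of these were still lower in each of the 4 pairs, so that 36 members were lower in all pairs (43.6% of all genes were). With the pair as a replicate block the same limma test called 36 members lower (23.8% of all genes), the additional calls being CENPE, MELK, NDC80 and NUF2. TMM scaling (trimmed mean of M values) moved the median of all genes from -0.17 to -0.02 and that of the members to -1.07, and 24 members were then called lower without the block and 36 with it (16.4% of all genes). Without the block, the calls over all genes under TMM were 11.7% lower and 13% higher. The edgeR test with TMM on recovered reads called 26 (11.6% of all genes), and 36 with the block (16.3%).

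**Figure D2:**
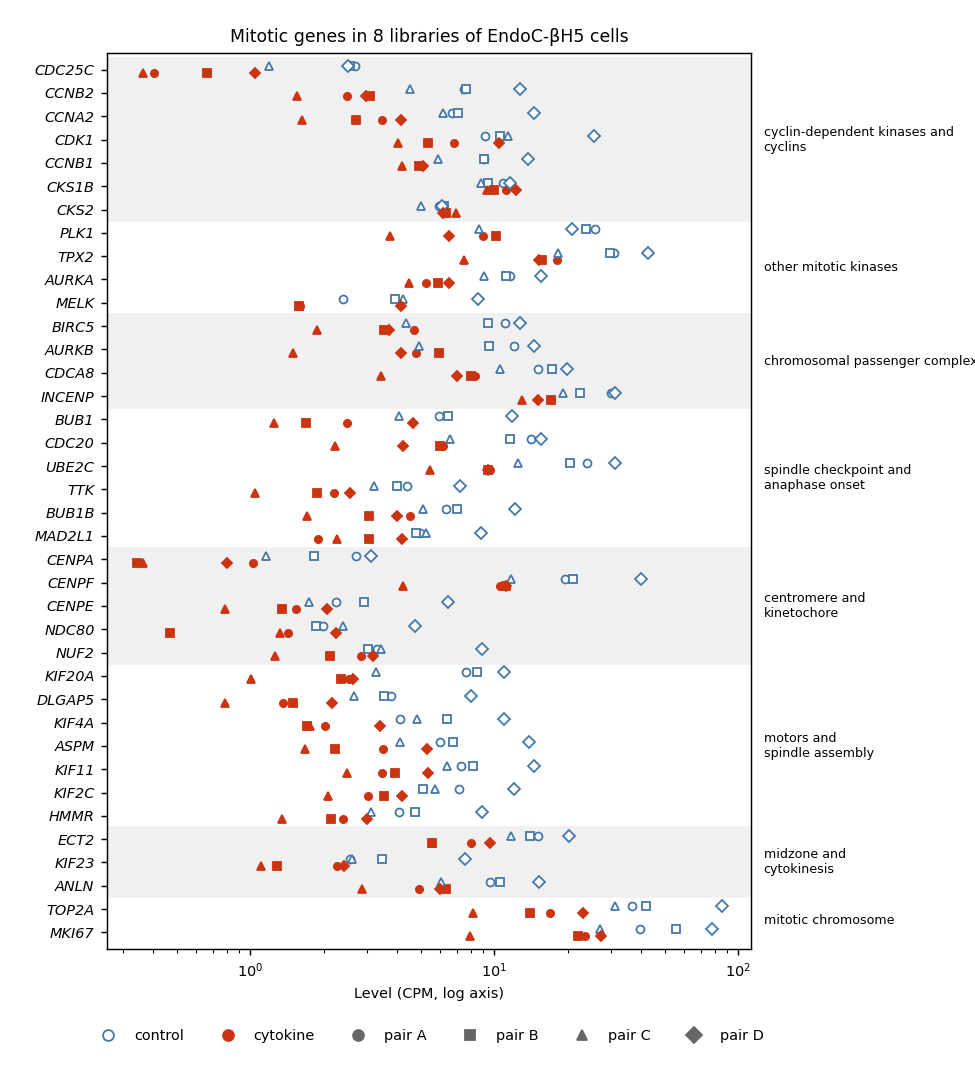
Level of each of the 38 mitotic genes in the 8 libraries; the x axis is CPM on a log axis, open blue symbols are control and filled red symbols cytokine libraries, and the symbol shape gives the pair (A to D). In 36 genes every filled symbol lies to the left of the open symbol of the same shape, and CKS1B and CKS2 are the exceptions.

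CDK1 and its partners divided into those that fell and those that did not. CDK1, the kinase that starts mitosis, was at 9.13, 10.5, 11.3 and 25.6 CPM in control libraries A to D and at 6.86, 5.34, 4.03 and 10.4 CPM in cytokine libraries A to D. Each cytokine library was below the control of its pair, but cytokine D lay within the control range (log2 fold change -1.03, SE 0.35, adjusted p = 0.0451). With TMM scaling its adjusted p was 0.0753, and it kept its call in 2 of the 8 fits that left out a library, those without control A or cytokine D. CCNA2, the cyclin A of dividing cells, was at 6.74, 7.09, 6.17 and 14.5 CPM in control and 3.47, 2.71, 1.63 and 4.16 CPM in cytokine libraries, with no overlap (-1.48, SE 0.33, adjusted p = 0.00642). The B-type cyclins activate CDK1 at mitotic entry. CCNB2 was at 7.51, 7.62, 4.499 and 12.8 CPM in control and 2.49, 3.10, 1.55 and 2.97 CPM in cytokine libraries, 3.02-fold lower on the scale of CPM + 0.1 (-1.59, SE 0.32, adjusted p = 0.00335). CCNB1 was at 9.07, 9.06, 5.89 and 13.7 CPM in control and at 5.05, 4.91, 4.19 and 5.10 CPM in cytokine libraries (-0.90, SE 0.23, adjusted p = 0.0135). Both cyclins had separate ranges in the 2 groups, and the 4 cytokine values of CCNB1 were close together while its controls differed.

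CDC25C, the phosphatase that activates CDK1, showed one of the largest falls (-1.74, SE 0.36, adjusted p = 0.00430). It was at 2.67, 2.56, 1.19 and 2.52 CPM in control and 0.405, 0.662, 0.362 and 1.04 CPM in cytokine libraries, and it differed from most members in that its largest within-pair change was in A (-2.46) and its smallest in D (-1.20). CKS1B and CKS2, small proteins that bind cyclin-dependent kinases, were the only 2 of the 38 members without a negative change. CKS1B was at 10.8, 9.46, 8.82 and 11.6 CPM in control and 11.1, 9.995, 9.30 and 12.3 CPM in cytokine libraries. CKS2 was at 5.92, 6.24, 5.00 and 6.12 CPM in control and 6.32, 6.36, 6.95 and 6.19 CPM in cytokine libraries. Both genes had overlapping groups, and their 8 values varied far less than those of the other members. The change of CKS1B was 0.07 (95% interval -0.26 to 0.41, adjusted p = 0.762 by limma) and that of CKS2 0.15 (-0.18 to 0.48, adjusted p = 0.481), and neither interval reached the changes of the 32 called members, of which INCENP was the smallest at -0.70. With TMM scaling the changes were 0.22 and 0.30, and neither gene was called in any of the fits. Both were slightly higher in each of the 4 pairs, as were 22.2% of all genes. The within-pair changes were 0.04 to 0.09 for CKS1B and 0.02 to 0.47 for CKS2. In edgeR with TMM and the block their adjusted p-values were 0.0446 and 0.0553, with changes below the 0.5 needed for a call. GENCODE lists processed pseudogenes of CKS1B, CCNB2, UBE2C, CDC20, AURKA, BUB1, DLGAP5 and MKI67, and reads that fit a gene and its copy are uncertain.

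The other mitotic kinases fell by similar amounts. PLK1, the Polo-like kinase needed for mitotic entry and spindle formation, was at 25.9, 23.8, 8.64 and 20.7 CPM in control and 8.96, 10.1, 3.74 and 6.49 CPM in cytokine libraries (-1.40, SE 0.38, adjusted p = 0.0167). Control C, at 8.64 CPM, lay below 2 cytokine libraries, so that the groups overlapped although the within-pair log2 changes lay between -1.66 and -1.18. AURKA, the centrosomal Aurora kinase, was at 11.5, 11.2, 9.10 and 15.6 CPM in control and 5.24, 5.85, 4.49 and 6.53 CPM in cytokine libraries (-1.07, SE 0.19, adjusted p = 0.00189). It had the smallest adjusted p of the members and kept its call in each fit that left out a library. TPX2, which activates AURKA on the spindle, was at 30.4 ± 9.95 CPM in control and 14.1 ± 4.600 CPM in cytokine libraries (-1.11, SE 0.30, adjusted p = 0.0174), and lost its call without control D (adjusted p = 0.0517). MELK, a kinase whose transcript is high in dividing cells, was not called (-1.05, SE 0.41, adjusted p = 0.0725), with 2.39, 3.92, 4.22 and 8.60 CPM in control and 1.60, 1.58, 1.59 and 4.16 CPM in cytokine libraries. It was lower in every pair and passed with the replicate block in limma (adjusted p = 0.000129).

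All 4 members of the chromosomal passenger complex, which corrects faulty attachments between chromosomes and spindle, were called lower, but 2 of 4 with TMM scaling. Over all genes 17.5% were called lower, and 11.7% with TMM scaling. AURKB, its kinase, was at 12.04, 9.48, 4.92 and 14.5 CPM in control and 4.79, 5.92, 1.49 and 4.16 CPM in cytokine libraries (-1.36, SE 0.43, adjusted p = 0.0334). BIRC5 (survivin) was at 11.1, 9.40, 4.34 and 12.7 CPM in control and 4.71, 3.52, 1.87 and 3.72 CPM in cytokine libraries (-1.38, SE 0.36, adjusted p = 0.0133). Control C was the lowest control for both genes and lay within the cytokine range. AURKB was not called with TMM scaling (adjusted p = 0.0717), nor without control A, B or D or cytokine C or D, which left its call in 3 of 8 such fits. CDCA8 (borealin) had separate ranges, 10.5 to 19.8 CPM in control and 3.44 to 8.30 CPM in cytokine libraries (-1.25, adjusted p = 0.00755). INCENP, the scaffold of the complex, was at 30.1, 22.4, 19.1 and 31.1 CPM in control and 17.1, 17.1, 12.96 and 15.05 CPM in cytokine libraries. Its change was the smallest of the called members (-0.70, SE 0.18, adjusted p = 0.0133), and with TMM scaling it was not called (-0.54, adjusted p = 0.0631).

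Genes of the spindle checkpoint and of anaphase onset were all called lower, 6 of 6 (17.5% of all genes were). BUB1, a checkpoint kinase, was at 5.94, 6.48, 4.06 and 11.8 CPM in control and 2.49, 1.69, 1.25 and 4.62 CPM in cytokine libraries (-1.51, SE 0.40, adjusted p = 0.0156). CDC20, the activator of the anaphase-promoting complex, was at 14.1, 11.6, 6.59 and 15.5 CPM in control and 6.15, 6.001, 2.21 and 4.22 CPM in cytokine libraries (-1.38, SE 0.35, adjusted p = 0.0122). UBE2C was at 24.1, 20.4, 12.4 and 31.1 CPM in control and 9.62, 9.42, 5.44 and 9.42 CPM in cytokine libraries (-1.33, SE 0.28, adjusted p = 0.00465). CDC20 and UBE2C had no overlap between groups, and in BUB1 cytokine D lay above control C only. The checkpoint members TTK (-1.25), BUB1B (-1.19) and MAD2L1 (-1.04) also fell, with cytokine libraries below control libraries throughout, and BUB1B lost its call without control D (adjusted p = 0.0534). BUB1B shares 457 of its 4476 exon bases with a readthrough transcript on the same strand, so its reads are uncertain there. The same holds for 138 of 1983 exon bases of CENPA, shared with SLC35F6, while exon bases shared with a gene on the opposite strand, 595 of 4760 for PLK1, concern a strand-specific library.

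Among the centromere and kinetochore genes 2 of 5 were called, 5 of 5 with the replicate block and 1 of 5 with TMM scaling. Over all genes the shares called lower in these fits were 17.5%, 23.8% and 11.7%. CENPA, the histone H3 variant that marks centromeres, was at 2.72, 1.82, 1.15 and 3.13 CPM in control and 1.02, 0.342, 0.362 and 0.804 CPM in cytokine libraries (-1.68, SE 0.40, adjusted p = 0.00856). CENPF, a large protein of the outer kinetochore, was at 19.4, 20.95, 11.7 and 40.1 CPM in control and 10.5, 11.2, 4.23 and 11.2 CPM in cytokine libraries (-1.26, SE 0.39, adjusted p = 0.0294). Neither gene had overlapping groups, although for CENPF control C and the highest cytokine libraries were close. CENPF was not called with TMM scaling (adjusted p = 0.0624) nor without control B, control D or cytokine C. NDC80 and NUF2 form the arm of the complex that grips microtubules. NDC80 was at 1.99, 1.86, 2.39 and 4.71 CPM in control and 1.43, 0.470, 1.33 and 2.25 CPM in cytokine libraries (-1.02, SE 0.43, adjusted p = 0.0961). NUF2 was at 3.31, 3.05, 3.42 and 8.88 CPM in control and 2.85, 2.11, 1.27 and 3.17 CPM in cytokine libraries (-0.88, SE 0.37, adjusted p = 0.0972). The kinetochore motor CENPE had a change of -1.06 (SE 0.40, adjusted p = 0.0671). In these 3 genes 1 cytokine library or more lay within the control range, and the within-pair changes were uneven, from -0.21 in A to -1.45 in D for NUF2. The estimate of NDC80 was -0.62 without cytokine B, and without control D those of NUF2 and CENPE were -0.53 and -0.69. NDC80 was called without cytokine D (adjusted p = 0.0492) and CENPE without control C (adjusted p = 0.0360).

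The spindle motors and assembly factors were called lower in 7 of 7 genes, and in 6 of 7 with TMM scaling (17.5% and 11.7% of all genes). KIF20A, a kinesin of the central spindle and cytokinesis, had the largest change of all members (-1.75, SE 0.39, adjusted p = 0.00668). It was at 7.63, 8.53, 3.26 and 10.9 CPM in control and 2.53, 2.35, 1.01 and 2.63 CPM in cytokine libraries, without overlap and 3.36-fold lower. The gene lies on chromosome 5 (chr5:138178719-138187715 in GENCODE 29, GRCh38, plus strand). KIF4A, a chromosome-bound kinesin, was at 4.11, 6.41, 4.82 and 10.9 CPM in control and 2.02, 1.71, 1.75 and 3.40 CPM in cytokine libraries (-1.48, SE 0.32, adjusted p = 0.00564). KIF11, the motor that pushes spindle poles apart, fell by 1.21 on the log2 scale from 9.09 ± 3.67 to 3.81 ± 1.18 CPM, without overlap. DLGAP5 (-1.52), KIF2C (-1.16) and HMMR (-1.13), which act on spindle microtubules, had separate groups too, while ASPM (-1.24), a protein of the spindle poles, overlapped. ASPM was the gene not called with TMM (adjusted p = 0.0711) and was called in 2 of 8 fits that left out a library, those without control C or cytokine D, and HMMR lost its call without control B, control D or cytokine C. The 3 genes of the midzone and cytokinesis were called as well, and 1 of 3 with TMM scaling (again 17.5% and 11.7% of all genes). ECT2, which activates the contractile ring, was at 15.1, 14.01, 11.7 and 20.2 CPM in control and 8.03, 5.53, 5.56 and 9.62 CPM in cytokine libraries (-1.09, SE 0.23, adjusted p = 0.00438). ANLN (anillin) changed by -1.02 and KIF23 by -1.08, with adjusted p-values of 0.0280 and 0.0485, which became 0.0686 and 0.0829 with TMM scaling. Neither was called without control B, control D, cytokine A or cytokine C, nor KIF23 without cytokine B.

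TOP2A, which untangles sister DNA, and MKI67, the coat of mitotic chromosomes known as the proliferation marker Ki-67, were among the members with most reads. TOP2A was at 36.5, 41.7, 31.1 and 85.3 CPM in control and 17.0, 14.1, 8.21 and 23.1 CPM in cytokine libraries (-1.61, SE 0.35, adjusted p = 0.00541). Its groups did not overlap. MKI67 was at 39.7, 55.7, 27.1 and 77.9 CPM in control and 23.6, 21.98, 7.95 and 27.4 CPM in cytokine libraries (-1.34, SE 0.40, adjusted p = 0.0265). Here the highest cytokine library, D, was level with control C, and MKI67 was not called with TMM scaling (adjusted p = 0.0560) nor without control B or control D.

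**Figure D3:**
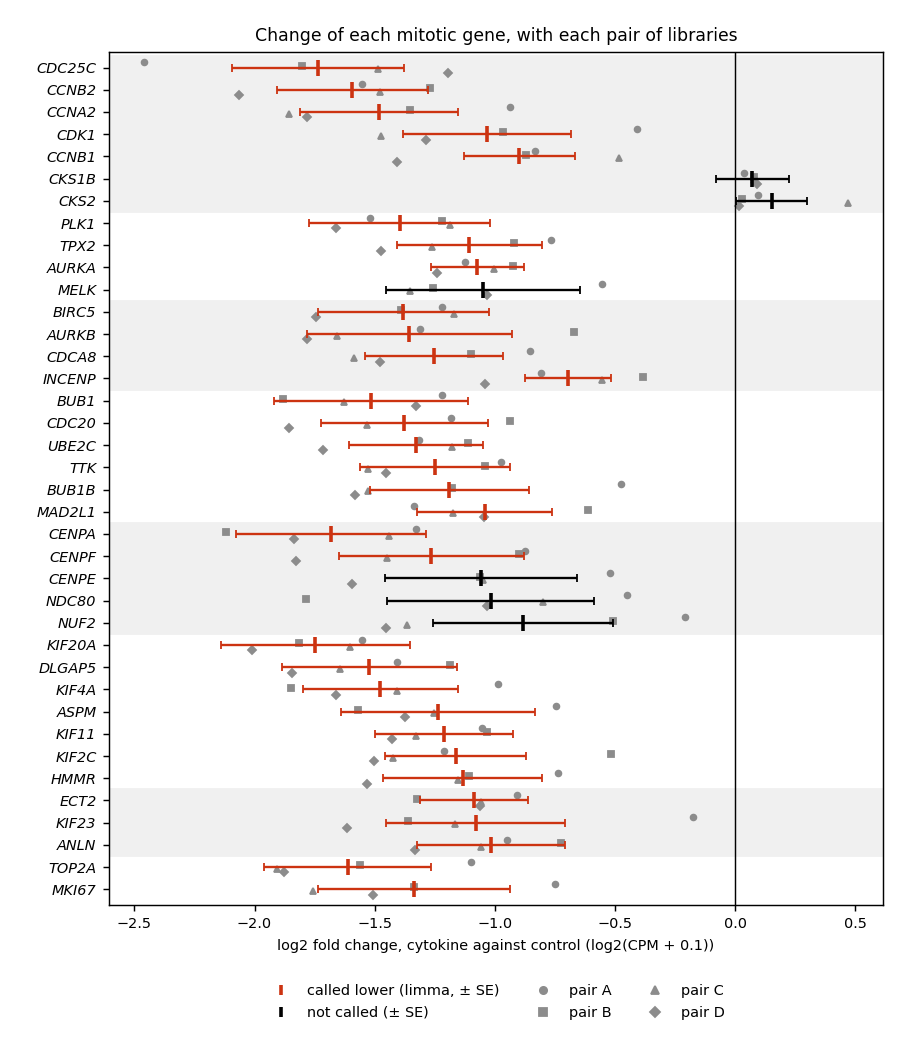
Log2 fold change of each mitotic gene, cytokine against control, on the scale log2(CPM + 0.1); bars show the limma estimate with its standard error, red for genes called lower and black for genes not called, and grey symbols show the 4 pairs. All grey symbols lie below 0 except those of CKS1B and CKS2.

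The size of the fall differed between pairs. The median within-pair log2 change of the 38 members was -0.94 in A, -1.11 in B, -1.36 in C and -1.49 in D, against medians over all genes of -0.08, -0.12, -0.28 and -0.16. Pair D had the largest fall for 22 members and pair A the smallest for 21, without a share over all genes for these counts. The median over all genes likewise fell least in A, but it fell most in C. The summed level of the members was 424, 433, 288 and 688 CPM in control libraries A to D and 223, 208, 124 and 248 CPM in cytokine libraries A to D. Without CKS1B and CKS2, the control sum was 1.98, 2.18, 2.55 and 2.92 times the cytokine sum in A to D. Control D was the highest control library for 35 of 38 members (20.7% of all genes) and control C the lowest for 30 of 38 (19.2%). Among cytokine libraries, D was the highest for 25 (28.1% of all genes) and C the lowest for 31 (32.4%). The median member was 2.34-fold higher in control D than in control C, with 38 of 38 higher in D (37.4% of all genes), and 2.07-fold higher in cytokine D than in cytokine C, with 37 of 38 higher (53.1% of all genes). Controls C and D thus differed in mitotic transcripts by about as much as the groups did, and D was above C with and without cytokines. Library D is also the pair with the larger share of reads outside the listed genes, and the part of this in the result was not tested. Leaving out control D left 22 members called lower (14.5% of all genes) and a median of -0.95. Leaving out control B, cytokine C, cytokine A or cytokine B left 24, 25, 28 or 29 members. The shares of all genes were then 15.6%, 15.7%, 15% and 15.2%. With all libraries 17.5% of all genes were called lower, so calls were also lost outside the members.

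**Figure D4:**
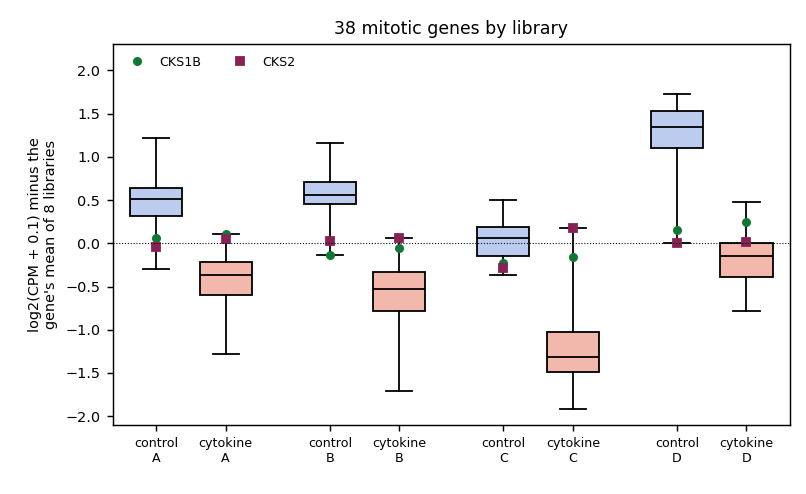
Level of the 38 mitotic genes in each library as log2(CPM + 0.1) minus the gene's mean over the 8 libraries; boxes give the quartiles and median, whiskers the lowest and highest gene, green circles CKS1B and purple squares CKS2. In each pair the cytokine box is below the control box, control D is highest and cytokine C is lowest.

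Pairs C and D together were compared with A and B in the same model. Beside the treatment, 3 members were called between these series of libraries (20.7% of all genes were). PLK1 was lower in C and D (-0.91, adjusted p = 0.00840 by limma), while MELK (0.81, adjusted p = 0.0473) and NDC80 (0.87, adjusted p = 0.0451) were higher. Each series holds 2 pairs, and this fit counts the libraries of a pair as independent although they deviated together, so that its p-values are too small and the values are best read as a description. With TMM scaling CDC20 and PLK1 were called (17.7% of all genes), and with edgeR and TMM PLK1 alone (17.5%). A different response in the 2 series was not detected for any member. The interaction of treatment and series gave 0 called members by limma and 0 with an unadjusted p below 0.05. Over all genes 5 of 16525 were called (0.0303%). With 2 pairs in each series a moderate difference could go undetected. The interaction estimate was negative for 31 of the 38, but no share over all genes was taken for this count. The median changes over all genes were also lower in C and D (-0.28 and -0.16) than in A and B (-0.08 and -0.12).

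Ratios between partner genes do not depend on the scaling of libraries. For 9 pairs of members that are paralogs or partners, the log2 ratio was compared between groups by an exact permutation test (2-sided, smallest possible p = 0.0286), with adjustment over the 9. After adjustment 0 of 9 passed. A single ratio at the smallest possible p is adjusted to 0.257 whatever the size of its change, so this outcome cannot decide about a single ratio. The test also leaves the pairs out of account. CCNB1 relative to CCNB2 changed most, from a mean log2 ratio of 0.25 ± 0.12 in control to 0.94 ± 0.32 in cytokine libraries (n = 4 each, exact permutation p = 0.0286, adjusted 0.257). Within pairs A to D the ratio changed by 0.72, 0.40, 0.996 and 0.66. INCENP relative to BIRC5 was higher by 0.68 (exact permutation p = 0.0857, adjusted 0.386), also in 4 of 4 pairs. The ratios of CDC20 to UBE2C (-0.05), TPX2 to AURKA (-0.03) and KIF23 to ECT2 (0.01) changed by less than the spread between libraries.

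Other genes of the mitotic pathway stand beside background shares of 17.5% called lower and 9.52% called higher by limma. Of 18 regulators of CDK1 and of mitotic transcription, 9 were called lower and 2 higher, with a median log2 fold change of -0.47. WEE1, the kinase that holds CDK1 inactive, was higher with cytokines, at 27.9 CPM in control and 93.0 CPM in cytokine libraries (log2 fold change 1.73), and so was CDKN1A (p21), an inhibitor of cyclin-dependent kinases, at 109 and 230 CPM (1.04, adjusted p = 0.0070). The inhibitor CDKN1B (p27) was not called (0.09), nor was ENSA (0.23), whose product restrains a phosphatase that opposes CDK1. FOXM1 (-1.27) and MYBL2 (-1.13), transcription factors of G2 and mitosis, were lower, as were GTSE1 (-1.48) and CDKN3 (-0.72), a phosphatase that acts on CDK1. FOXM1 and CDKN3 were not called with TMM scaling, under which 4 of the 18 were lower and 2 higher. Over all genes the shares with TMM scaling were 11.7% lower and 13% higher. Of 11 subunits of the MuvB and DREAM complexes, which bind the CHR, 3 were called lower and 2 higher with a median of -0.13. LIN9 (-0.89) and TFDP1 (-0.59) were lower, E2F5 (1.04) was higher, and RBBP4 (-0.43) was not called. With TMM scaling 2 of the 11 were lower and 3 higher, with a median of 0.02. Subunits of the anaphase-promoting complex, the ligase that CDC20 activates, had a median of -0.12, and 2 of 14 were called lower, ANAPC5 (-0.53) and ANAPC15 (-0.68), while CDC16 was not (0.02).

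Structural genes of mitosis outside the 38 were divided. Of 30 other kinetochore and checkpoint genes, 13 were called lower and 0 higher with a median of -0.80. With the replicate block 20 were lower, where 23.8% of all genes were lower and 11.6% higher. ZWINT (-1.47) and SKA3 (-1.38) fell, whereas BUB3 (-0.03) and CENPT (-0.41) were not called. Of 29 other spindle, centrosome and cytokinesis genes, 14 were called lower and 1 higher with a median of -0.87, and with the block 21 and 2. KIF18B (-1.49), FAM83D (-1.47) and NUMA1 (-0.71) were lower, and GAS2L3 (0.35) was not called. Of 20 genes of condensin, cohesin and separase, 8 were lower and 1 higher with a median of -0.34. ESPL1, the separase that cuts cohesin at anaphase (-1.57), and CDCA5, which protects cohesin until then (-1.17), were lower, while the cohesin subunits SMC1A (-0.15) and RAD21 (-0.36) were not called. With TMM scaling 10 of the 30 kinetochore and checkpoint genes were lower and 0 higher. Of the 29 spindle, centrosome and cytokinesis genes 10 were lower and 3 higher, and of the 20 condensin, cohesin and separase genes 7 and 1. Over all genes 11.7% were lower and 13% higher with TMM scaling. KIF18B, and of the preceding lists TFDP1 and ANAPC5, were then not called, and GAS2L3 was called higher.

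Genes of DNA replication fell as well. Of 30 genes of the G1/S step and DNA replication, 24 were called lower and 1 higher, with a median log2 fold change of -1.02. RRM2, a subunit of ribonucleotide reductase, was at 37.2 CPM in control and 11.5 CPM in cytokine libraries (-1.71), UHRF1 changed by -1.66 and MCM7 by -0.53, while MCM2 was not called (-0.09). MCM7 was not called with TMM scaling, under which 22 of the 30 were lower and 1 higher (11.7% and 13% of all genes). Of 11 G1 cyclins, their kinases and inhibitors, 3 were lower and 1 higher with a median of -0.18. CDKN2B, an inhibitor of CDK4 and CDK6, was lower (-1.67), and CDKN2A (0.31) and RB1 (-0.35) were not called. CCND1, cyclin D1, was at 0, 2, 1 and 2 reads in control libraries A to D and at 54, 49, 112 and 69 reads in cytokine libraries A to D. It was thus at or below the limit of 3 reads in all controls and above it in all cytokine libraries. Of the libraries used, only those with cytokines were above the 0.5 CPM of the authors' filter for CCND1. Its place in the list and its call as higher therefore both rest on the group where it was high.

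**Figure D5:**
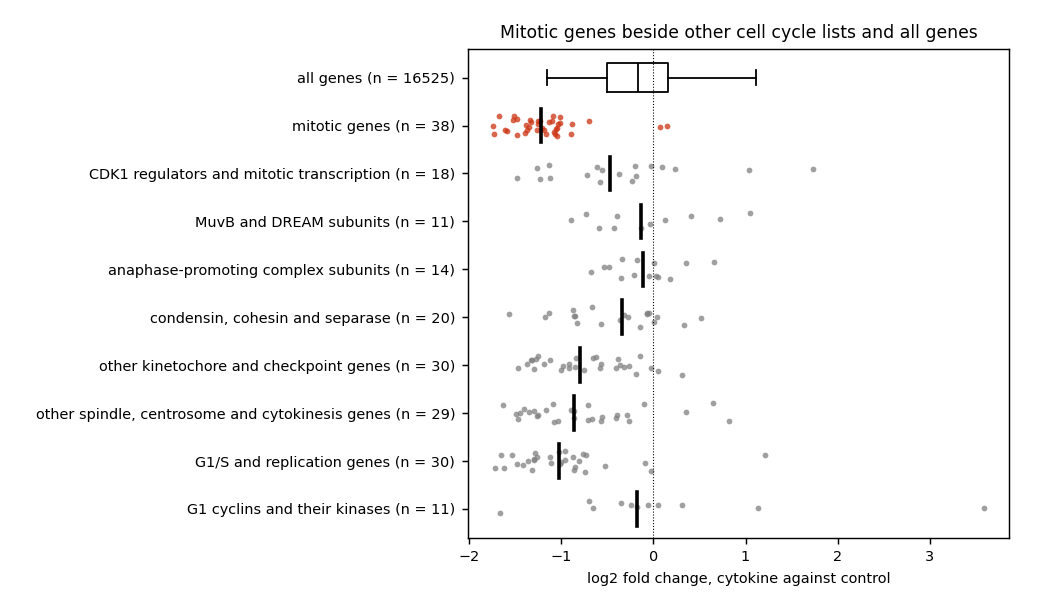
Log2 fold change, cytokine against control, of the 38 mitotic genes (red) and of the genes of 8 other cell cycle lists (grey), with a black bar at each median; the box at the top gives the quartiles and the 5th to 95th percentiles of all 16525 genes. The median of the mitotic genes is -1.22 and that of all genes -0.17, and the point farthest right is CCND1, whose estimate rests on 0 to 2 reads in the controls.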

How the data were processed

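The members and the gene lists were chosen with earlier results of these data known. According to the methods, reads were aligned by the authors with TopHat2 2.1.1 to GRCh38 and counted on genes of Ensembl release 107 with HTSeq 0.9.1 at default settings, and the deposited CPM values keep genes above 0.5 CPM in at least 4 samples. CPM was taken relative to each library's total, which includes reads outside the listed genes. Another 4 columns of values in the table could not be matched to a sample and were not used. In each library 100% of values were whole multiples of 1 read (tolerance 0.01), so reads were recovered, and the limit for a count of 0 was 3 reads, or 0.0587 to 0.0641 CPM. Such limits reflect only counting error, whereas the intervals of fold changes come from the spread between libraries.

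Groups came from the column names, as the sample titles give them. Groups were compared on log2(CPM + 0.1) by limma (version 3.58.1, R 4.3.3) as the main test, which used an intensity trend and no block, since the table holds CPM and not counts. Fold changes on this scale understate those of low genes. Calls used the thresholds of the methods, an absolute log2 change above 0.5 and an FDR below 0.05 over 16525 genes. Every member in the table was named, and of each other list the 2 genes of highest mean CPM and the 2 called genes with the largest change, with FOXM1, MYBL2, CDKN1A, CDKN1B, CDKN3 and WEE1 in any case, and FN1 and VIM among them. Markers of other cell types were named by the same rule or, where not analysed, as examples. Alternatives were TMM and median-of-ratios scaling, pseudocounts of 0.5 and 1, a mean of at least 1 CPM, no trend, tests of the recovered reads by DESeq2 1.42.0 and edgeR 4.0.16, a term for the series, and each library left out. The scripts were tested on simulated data.

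The replicate block pairs libraries by the shared first part of their column names. Across genes, the correlation of a pair's deviations from the group means was 0.46, 0.50, 0.75 and 0.68 in A to D, and 0.45 and 0.49 with A and B crossed, so this does not separate A from B. The chi-square per gene between libraries of a group was at least 5.89, so none was a copy of another. TPM used GENCODE 29 exon lengths, found for 97.8% of genes. Promoters were those of RefSeq (GRCh38.p14), the first entry per symbol. The printed sequences are chosen examples, and each of their windows holds at most 30 bases of a GENCODE exon of the gene. Python 3.11.15 with pandas 2.3.3, numpy 2.4.6, scipy 1.17.1 and matplotlib 3.10.9 was used.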

Additional observations from a re-analysis of the deposited data

Results flagged for a closer look

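Among the 76 sets of 4 libraries tested (38 members in 2 groups), 8 held a library far from the other 3 by Dixon's criterion, where about 3.8 would be flagged by chance. In control library D, CCNA2 at 14.5 CPM, MAD2L1 at 8.78 CPM and NUF2 at 8.88 CPM were far above the other controls, which lay at 6.17 to 7.09 CPM, 4.76 to 5.26 CPM and 3.05 to 3.42 CPM. In control library C, CDC25C was far below the others at 1.19 CPM, against 2.52 to 2.67 CPM. In cytokine library D, MELK stood out at 4.16 CPM, where the other cytokine libraries were at 1.58 to 1.60 CPM. In cytokine library C, UBE2C at 5.44 CPM, CENPF at 4.23 CPM and KIF20A at 1.01 CPM were far below the other cytokine libraries. These libraries, D and C, are the ones with the highest and the lowest summed level of the members in their group.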

How the results depend on the processing

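In all 21 alternatives and left-out libraries 0 members were called higher and 36 had a negative change. Of the 38 single results, 8 lost their call with TMM and 8 with median-of-ratios scaling, 6 with edgeR and TMM, 3 without the intensity trend and 1 with a pseudocount of 1, and none with a pseudocount of 0.5, a mean of at least 1 CPM, edgeR without TMM or an FDR below 0.05 alone. DESeq2 added CENPE. The replicate block, which pairs the libraries by column name, called 36 members lower in limma with and without TMM and in edgeR with TMM, and it changed no other call. The term for the series gave the same number. Leaving out 1 library gave between 22 (without control D) and 33 (without cytokine D) members called lower. In these 2 fits 14.5% and 16.3% of all genes were called lower. A set of 22 members kept their call in every fit that left out a library, but no share over all genes was taken for this count. The median change of the members ranged from -1.38 (without control C) to -0.95 (without control D). Members called between the series numbered 3, but 1 with edgeR and TMM. With a pseudocount of 1 the change in the ratio of NDC80 to NUF2 turned from -0.13 to 0.0326 and that of CDC20 to UBE2C from -0.05 to 0.0360, and the cause was not tested. Leaving out 1 library, the changes in ratio ranged from -0.17 to 0.0188 (CKS1B to CKS2), 0.55 to 0.79 (CCNB1 to CCNB2), -0.0380 to 0.48 (AURKA to AURKB), -0.43 to 0.24 (NDC80 to NUF2), -0.55 to -0.20 (BUB1 to BUB1B), -0.16 to 0.21 (KIF23 to ECT2), 0.51 to 0.88 (INCENP to BIRC5), -0.20 to 0.15 (TPX2 to AURKA) and -0.14 to 0.0662 (CDC20 to UBE2C). Only 1 annotation was given, so no other exon length was tried. CENPA and CDC25C rest on as few as 16 and 18 reads in a library.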
